A study of Homo sapiens with 10 samples.

Results

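The DNA replication and S-phase genes followed here were listed by name: 43 genes that license replication origins, unwind and copy DNA, supply its nucleotides, or switch these genes on. They were examined in 501Mel, an established human melanoma cell line. One group received a small interfering RNA named siIRF4, aimed at interferon regulatory factor 4 (IRF4, a DNA-binding transcription factor), and the other a control named siCTRL, with 3 RNA-seq libraries of each. The labels give no dose, no time after transfection and no other treatment, and do not say whether the libraries came from separate cultures, so p-values measure the spread between these libraries, which may be technical. The files list 187626 Ensembl transcripts without gene names, and a main transcript was named for 6 of the 43 genes: MCM2, MCM4, MCM5, MCM6, MCM7 and E2F1. All 6 were in the files and all 6 passed the filter on low counts. The level of IRF4 and markers of the pigment cell lineage were not analysed here, so neither the knockdown nor the labelled cell type was checked.

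Each round of the cell cycle begins with origin licensing, in which ORC, CDC6 and CDT1 load the MCM2 to MCM7 ring onto DNA, while geminin (GMNN) restrains CDT1. Later the kinase CDC7, MCM10, CDC45 and the GINS proteins turn the ring into a moving helicase, and polymerases, the PCNA clamp and its RFC loader copy the strands. E2F1 and its relatives, held in check by the RB protein family, activate many of these genes as cells approach S phase.

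Promoter sequences were looked at because E2F1 is itself on the list and E2F proteins are known regulators of the others. RefSeq (GRCh38.p14) gave promoter windows of 300 bases, from 250 bases before to 50 bases after a start site, for 39 of the 43 genes. MCM4, MCM5, GINS4 and POLD3 were not matched. A typical strong E2F element reads TTTCGCGC or TTTGGCGC, and TTTCCCGC is a common variant. These 3 motifs were searched on both strands. The CCAAT box, CCAAT, is bound by the factor NF-Y. At least 1 of the 3 E2F motifs was found in 23 of the 39 genes (59.0%), against 717 of 15842 protein-coding genes in the same table (4.53%). Per window rather than per gene, the shares were 23 of 51 (45.1%) and 762 of 22198 (3.43%). Many of the 43 genes are textbook E2F targets, so the list was not drawn up without regard to E2F.

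The form TTTCGCGC was present in all 4 MCM2 to MCM7 genes that have a window, MCM2, MCM3, MCM6 and MCM7, and in 1 other gene, POLA2, which encodes the second subunit of polymerase alpha. In protein-coding genes its share was 0.941%. The following stretches of 30 bases show the first E2F motif in the window of 7 genes from 6 of the role groups, in GRCh38.p14, with the bases that match an E2F motif on either strand in capitals. Where motifs overlap, as in MCM2 and TIPIN, the capitals run on.

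MCM2 (chr3:127598402-127598431, plus strand): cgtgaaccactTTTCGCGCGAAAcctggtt
MCM3 (chr6:52284898-52284927, minus strand): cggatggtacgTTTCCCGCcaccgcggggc
CDC6 (chr17:40287875-40287904, plus strand): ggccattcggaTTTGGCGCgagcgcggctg
POLA2 (chr11:65261898-65261927, plus strand): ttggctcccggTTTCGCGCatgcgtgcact
PCNA (chr20:5126663-5126692, minus strand): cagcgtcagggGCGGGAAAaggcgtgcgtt
TYMS (chr18:657603-657632, plus strand): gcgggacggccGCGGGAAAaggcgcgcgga
TIPIN (chr15:66356733-66356762, minus strand): ccccgcacggaTTTGGCGCCAAAcgctgcg

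In MCM2 the motif lies just after the start, beginning at base 3 of the transcript, and reads the same on both strands, so that a second match begins at base 7. CDC6, which brings the MCM ring to the origin, has its motif at base 8. The other stretches lie before the start, from base -174 in MCM3 to base -39 in TYMS, the enzyme that makes thymidylate.

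In MCM6 another pair of overlapping motifs, TTTGGCGC with TTTCGCGC, occurs at 2 places. Its 250 bases before the start are shown beside those of MCM7 and E2F1, since transcripts of these 3 genes were measured. Capitals mark E2F motifs and CCAAT boxes, in either orientation.

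MCM6 (chr2:135876444-135876693, minus strand): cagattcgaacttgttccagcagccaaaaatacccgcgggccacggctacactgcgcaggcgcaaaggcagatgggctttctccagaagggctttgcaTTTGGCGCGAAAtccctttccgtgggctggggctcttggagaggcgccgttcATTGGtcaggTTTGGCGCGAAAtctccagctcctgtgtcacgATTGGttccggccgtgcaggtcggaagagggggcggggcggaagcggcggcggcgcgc
MCM7 (chr7:100101398-100101647, minus strand): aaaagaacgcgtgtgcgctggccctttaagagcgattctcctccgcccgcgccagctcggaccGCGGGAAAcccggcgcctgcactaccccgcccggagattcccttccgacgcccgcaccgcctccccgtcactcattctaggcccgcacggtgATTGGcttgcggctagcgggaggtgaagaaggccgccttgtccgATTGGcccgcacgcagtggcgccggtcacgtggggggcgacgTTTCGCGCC
E2F1 (chr20:33686386-33686635, minus strand): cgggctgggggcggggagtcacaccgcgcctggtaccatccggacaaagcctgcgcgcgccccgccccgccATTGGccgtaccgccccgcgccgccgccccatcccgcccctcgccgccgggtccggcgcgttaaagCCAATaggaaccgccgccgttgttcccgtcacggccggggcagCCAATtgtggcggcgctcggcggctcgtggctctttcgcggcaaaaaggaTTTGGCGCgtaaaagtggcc

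In MCM6, TTTGGCGC and the reverse strand of TTTCGCGC overlap at bases -152 and -148 and again at bases -90 and -86, with CCAAT boxes at bases -100 and -58. In the MCM7 window shown, 1 of 3 listed for that gene, E2F motifs begin at bases -187 and -9, and CCAAT boxes at bases -95, -51 and -2, the last running on past the printed bases. In E2F1 the motif TTTGGCGC begins at base -20, with 3 CCAAT boxes at bases -179, -113 and -70.

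By role, an E2F motif was found in 3 of 5 licensing genes, in 4 of 6 origin-firing genes with a window, and in 4 of 7 polymerase and primase genes with a window. It was found in 3 of 7 clamp, loader and flap-processing genes, in 1 of 4 genes of nucleotide supply and in both E2F genes. Both fork-protection genes (CLSPN and TIPIN) held it, and neither of the listed chromatin assembly genes (CHAF1A and CHAF1B) did. RRM2, which encodes a subunit of ribonucleotide reductase, and TK1, which encodes thymidine kinase, held CCAAT boxes but none of the 3 E2F motifs. The same held for RRM1, ORC1, ORC6, MCM10, CDC45, PRIM1, RFC5 and CHAF1A. A CCAAT box was found in 23 of 39 genes (59.0%), against 42.1% of protein-coding genes.

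Motifs bound by IRF proteins were searched in the same windows. The interferon-stimulated response element was found in 0 of 39 genes, against 4.16% of protein-coding genes. The ETS-IRF composite element was found in RFC3, which encodes a clamp loader subunit, at the first base of its window. Either form thus occurred in 1 of 39 genes (2.56%), against 7.18% of protein-coding genes. In a list of 39 genes such shares amount to few genes. The counts of 0 and 1 therefore do not show that IRF motifs are rarer here. These are matches of letters in short windows and are not measured binding sites.

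**Figure D1:**
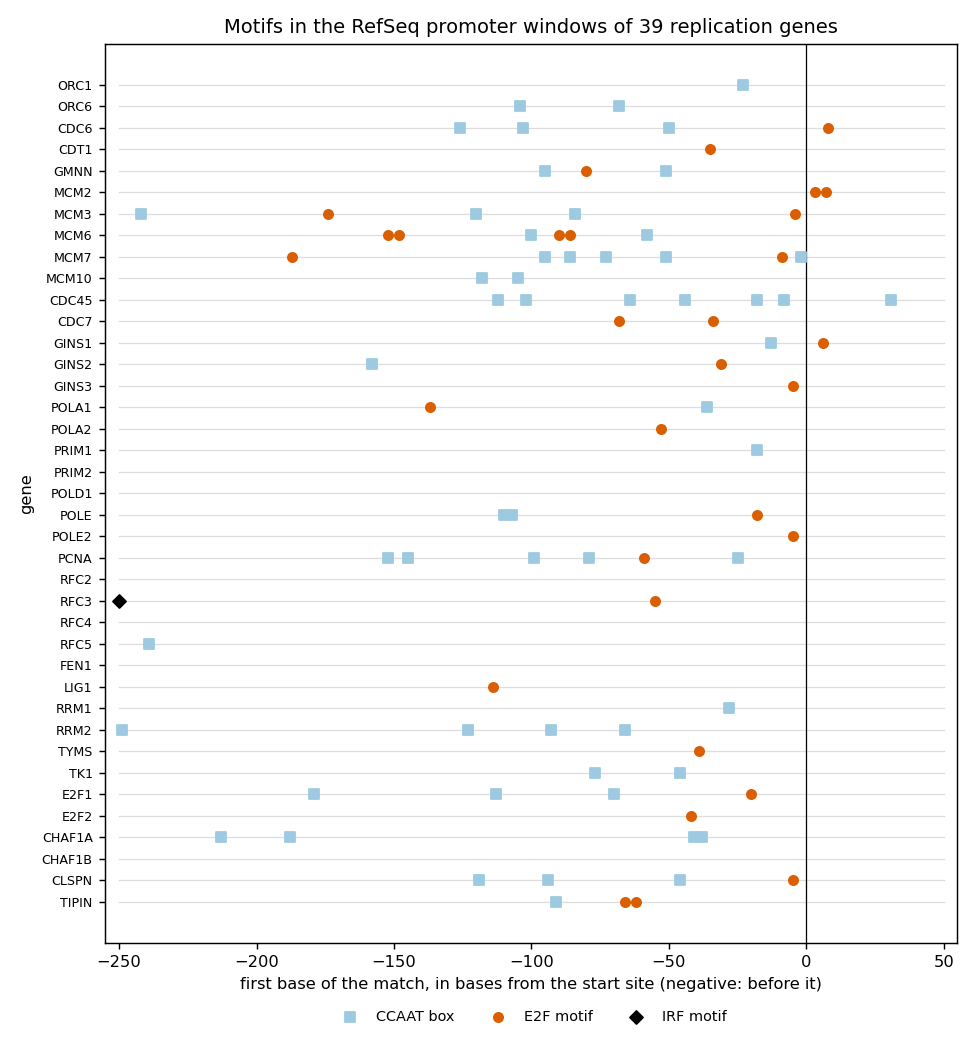
Position of E2F motifs (orange circles), CCAAT boxes (blue squares) and IRF motifs (black diamond) in the promoter windows of 39 replication genes; the horizontal axis is the first base of each match in bases from the start site, and all windows of a gene share a row. E2F motifs occur in 23 of the 39 rows, and the single IRF motif lies in RFC3.

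The 6 libraries held between 129989698 (siCTRL replicate 3) and 203758441 (siCTRL replicate 2) estimated counts. On the first principal component, which carried 43.4% of the variance of log2 CPM, the libraries did not part by label. In rising order they were siCTRL replicate 3 (-94.5), siCTRL replicate 1 (-79.6), siIRF4 replicate 1 (-54.1), siIRF4 replicate 3 (47.0), siCTRL replicate 2 (77.5) and siIRF4 replicate 2 (103.8). Each difference between the groups is therefore also given without siIRF4 replicate 1 and siCTRL replicate 2, the pair that lies among libraries of the other label. That choice was made after the data were seen. Since IRF4 was not measured, whether these 2 libraries carry the right labels was not tested, and every difference below rests on the labels as given.

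The MCM proteins form the ring-shaped helicase core, and 5 of their transcripts were followed. Levels are given as the authors' TPM, which is scaled to transcript length, for the main transcript only. MCM7 was the highest of the 6, at 218, 216 and 207 TPM in siIRF4 replicates 1, 2 and 3 and at 247, 204 and 204 TPM in siCTRL replicates 1, 2 and 3. Its groups overlapped, with siCTRL replicate 1 above all other libraries. The MCM7 gene also holds the microRNA genes MIR25, MIR93 and MIR106B within its span in the RefSeq table, and those were not measured here.

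MCM6 stood at 53.2, 56.1 and 58.2 TPM in siIRF4 replicates 1, 2 and 3 and at 62.1, 60.2 and 54.7 TPM in siCTRL replicates 1, 2 and 3. The ranges overlapped through siCTRL replicate 3. MCM6 was the steadiest of the 6 transcripts: its highest library was 1.17 times its lowest. Its SD of log2 normalised CPM within groups was 0.0745, below that of all but 2.9% of the 1000 tested transcripts nearest to it in abundance, whose median was 0.191.

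MCM5 stood at 44.0, 56.0 and 51.1 TPM in the siIRF4 libraries and at 62.3, 49.2 and 44.0 TPM in the siCTRL libraries, each in the order of replicates 1, 2 and 3. MCM2 stood at 45.5, 49.2 and 48.9 TPM in siIRF4 and at 56.4, 46.1 and 43.4 TPM in siCTRL. For both, the siCTRL libraries held the highest value, in replicate 1, and also spread more widely than siIRF4. In siCTRL the means of MCM2, MCM5 and MCM6 were 48.6 ± 6.85, 51.8 ± 9.40 and 59.0 ± 3.85 TPM (SD, n = 3), and the ranges overlapped.

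The proportions of MCM5, MCM6 and MCM7 to MCM2 were similar in the libraries. Those of MCM7 to MCM5 (3.85 to 4.95) and of MCM7 to MCM6 (3.39 to 4.09) ranged more widely than that of MCM7 to MCM2. MCM7 was 4.48 ± 0.215 times MCM2 (SD, n = 6 libraries), with a range from 4.22 to 4.79, and the group means of this ratio of TPM were 4.46 in siIRF4 and 4.50 in siCTRL. MCM5 was 1.06 ± 0.0618 times MCM2, and MCM6 was 1.19 ± 0.0762 times MCM2, from 1.10 to 1.31, so that MCM6 lay above MCM2 in each of the 6 libraries. The proteins act in the ring in equal numbers, while the transcripts followed here are not the sum of each gene's isoforms.

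The named MCM4 transcript was far lower, at 5.72, 3.66 and 4.92 TPM in siIRF4 replicates 1, 2 and 3 and at 5.35, 2.82 and 5.50 TPM in siCTRL replicates 1, 2 and 3. It was low in the libraries numbered 2 of both groups. MCM2 was 7.90 to 16.4 times this MCM4 transcript in TPM. As other MCM4 transcripts were not summed, this is the level of 1 isoform and not of the gene.

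E2F1, the transcription factor, varied most. It stood at 29.0, 53.5 and 37.0 TPM in siIRF4 replicates 1, 2 and 3 and at 34.3, 47.1 and 17.4 TPM in siCTRL replicates 1, 2 and 3. The highest library of each group was the one numbered 2, and the lowest of all was siCTRL replicate 3. The highest value was 3.08 times the lowest. Its SD of log2 normalised CPM within groups was 0.61, above that of 93.5% of the 1000 tested transcripts nearest in abundance, whose median was 0.208. Counting error was small against this, since the lowest E2F1 count, 3632, carries an error of 1.66% if each fragment is independent. For MCM4, with a lowest count of 1416, that error was 2.66%. Neither figure includes the error of assigning fragments to transcripts, which was not measured.

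**Figure D2:**
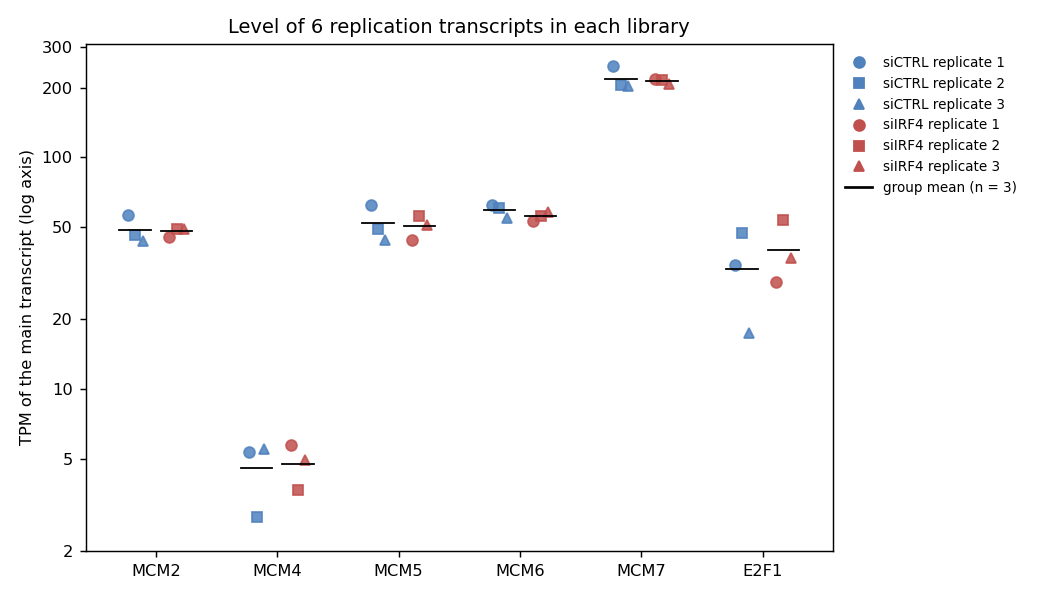
Level of the main transcript of 6 replication genes, in TPM on a log axis, in each siCTRL (blue) and siIRF4 (red) library, with a bar at the mean of 3 libraries; symbols give the replicate number. The groups overlap for all 6 transcripts, and E2F1 spreads most, from 17.4 to 53.5 TPM.

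The comparison of siIRF4 with siCTRL asked whether these transcripts change when IRF4 is targeted. None of the 6 differed beyond the spread between libraries. With edgeR, 0 of 6 passed an adjusted p of 0.05, and 0 of 83831 transcripts did (0%), the smallest adjusted p being 0.514. At an unadjusted p under 0.05 there were 0 of 6, against 2.14% of all transcripts tested (1.15% lower and 0.99% higher in siIRF4). That background of 1791 transcripts became 4005 without siIRF4 replicate 1 and 4301 without siCTRL replicate 2. Leaving out either of these moves the groups apart along the first principal component, so the rise does not test siIRF4. It was 1575 without siIRF4 replicate 2, 2018 without siIRF4 replicate 3, 1911 without siCTRL replicate 1 and 1945 without siCTRL replicate 3. In each of these fits the count of members stayed at 0 of 6. The groups did not overlap for 0 of 6 transcripts, against 3.77% of all tested that lay lower in siIRF4 without overlap and 3.53% that lay higher. The share over all transcripts would place less than 1 of 6 in any of these classes, so the counts of 0 say little about the replication genes.

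Among the helicase transcripts, 4 were slightly lower in siIRF4 and MCM4 slightly higher. The log2 fold change of MCM2 was -0.024 (95% interval -0.36 to 0.31), that of MCM5 -0.041 (-0.46 to 0.37), that of MCM6 -0.083 (-0.34 to 0.18) and that of MCM7 -0.031 (-0.34 to 0.28). As folds, the intervals ran from 0.782 to 1.24 for MCM2, from 0.728 to 1.30 for MCM5, from 0.788 to 1.13 for MCM6 and from 0.791 to 1.21 for MCM7. A change of these 4 transcripts by more than 1.4-fold in either direction thus lay outside their intervals, and smaller ones could not be told from none. The log2 fold change of MCM4 was 0.062 (-0.67 to 0.80), an interval of folds from 0.628 to 1.74.

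E2F1 had the largest difference, a log2 fold change of 0.28 (SE 0.394, 95% interval -0.66 to 1.22, edgeR unadjusted p = 0.498 and adjusted p = 1), or 1.22-fold with bounds of 0.634 and 2.33. The means were 39.8 ± 12.5 TPM in siIRF4 and 32.9 ± 14.9 TPM in siCTRL (SD, n = 3 each). The difference rested on single libraries: it was -0.019 without siIRF4 replicate 2 and -0.016 without siCTRL replicate 3, and it was 0.45 without siIRF4 replicate 1 and 0.63 without siCTRL replicate 2.

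The median log2 fold change was -0.028 over the 6 transcripts, -0.0064 over all 83831 tested and 0.012 over the 13459 whose abundance as fitted by edgeR was at least 10 CPM. No change of the 6 beyond the spread between libraries was seen. In bulk RNA, a change in the share of cells in S phase and a change per cell could not be told apart in any case.

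Leaving out siIRF4 replicate 1 and siCTRL replicate 2 left 2 libraries in each group. As that pair was picked by its place on the first principal component, the groups left part along that axis. This fit therefore cannot tell a difference by label from one along the axis, and its p-values do not test siIRF4. The log2 fold change was 0.80 for E2F1 (edgeR unadjusted p = 0.105, adjusted p = 0.517) and -0.38 for MCM4 (edgeR unadjusted p = 0.0874, adjusted p = 0.486), so that MCM4 changed direction. MCM2 was then at -0.049, MCM5 at -0.0087, MCM6 at -0.060 and MCM7 at -0.116, and the median of the 6 at -0.054. MCM4 also lay below 0 without either of these libraries alone, at -0.12 without siIRF4 replicate 1 and -0.19 without siCTRL replicate 2. Again 0 of 6 passed the adjusted or the unadjusted threshold in the fit without both libraries. Over all transcripts 0 passed the adjusted threshold there. An unadjusted p under 0.05 was reached by 10810 transcripts, against 1791 with all 6 libraries.

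**Figure D3:**
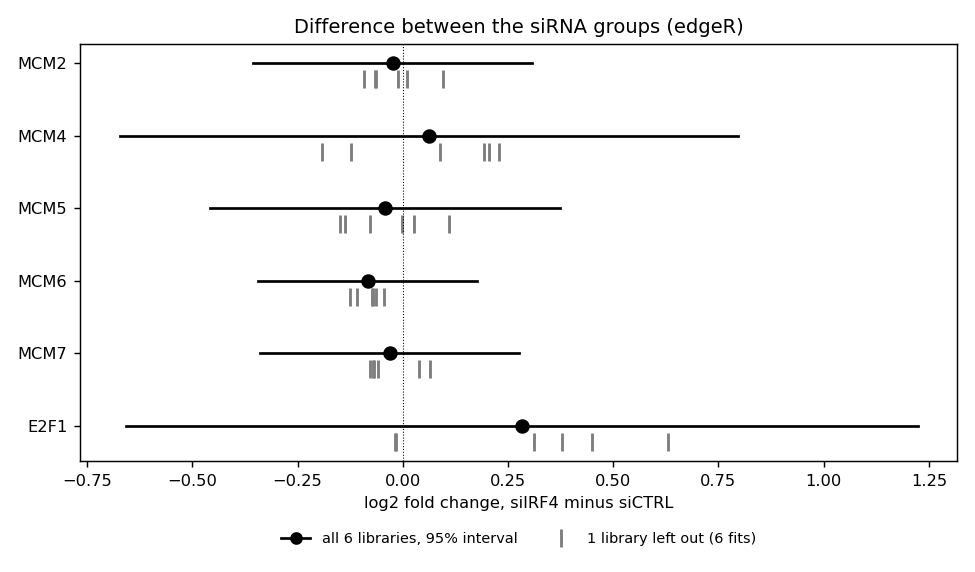
Log2 fold change of each transcript, siIRF4 minus siCTRL, by edgeR on all 6 libraries (black point with 95% interval) and in the 6 fits that each left out 1 library (grey ticks). All 6 intervals cross 0, and MCM6 is the transcript whose ticks all lie on 1 side.

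How the transcripts varied together was described over the 6 libraries with log2 normalised CPM. Over all 15 pairs of the 6 transcripts, the median of Pearson's r was 0.484. Over the 6 pairs of the abundant helicase transcripts MCM2, MCM5, MCM6 and MCM7, r ran from 0.614 to 0.946 with a median of 0.775. That subset leaves out E2F1 and MCM4 and was not part of the plan. Over all pairs of the 13449 transcripts whose mean normalised CPM was at least 10 the median was 0.0535, with quartiles of -0.381 and 0.472. The closest pair was MCM2 and MCM5, with r = 0.946 (exact permutation p = 0.0111, adjusted over 15 pairs 0.167) and Spearman's rho = 0.829 (exact permutation p = 0.0583, adjusted 0.438). For each pair, r was also computed without the 2 libraries farthest from the median of the gene named first. Leaving out extreme libraries tends to lower r, so a fall is in part built in. Without siCTRL replicate 1 and siIRF4 replicate 2, r was 0.447 for MCM2 with MCM5 and 0.442 for MCM2 with MCM7 (0.864 with all 6). It was 0.161 for MCM2 with MCM6 (0.753 with all 6) and -0.476 for MCM5 with MCM7 (0.704 with all 6). For MCM5 with MCM6 it was 0.648 (0.797 with all 6). Without siCTRL replicate 1 and siCTRL replicate 2, r of MCM6 with MCM7 was 0.629 (0.614 with all 6). Of the 15 pairs among the 6 transcripts, 0 passed an adjusted p of 0.05 by the exact two-sided permutation test of Pearson's r, whose smallest possible p is 0.00278.

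Between the named MCM4 transcript and the other helicase transcripts, r lay from -0.393 to 0.352. E2F1 and MCM4 were high in different libraries. In the order of the libraries on the first principal component given above, E2F1 stood at 27.6, 54.1, 47.3, 54.6, 74.1 and 87.5 normalised CPM. In the same order, MCM4 stood at 15.3, 14.9, 16.4, 12.7, 7.79 and 10.5 normalised CPM. E2F1 was thus lowest in the library at one end of that axis and highest in the library at the other, and the 2 libraries with the most E2F1, siCTRL replicate 2 and siIRF4 replicate 2, had the least MCM4. Between E2F1 and MCM4, r was -0.716 (exact permutation p = 0.11, adjusted over 15 pairs 0.329) and rho was -0.886 (exact permutation p = 0.0333, adjusted 0.438). Without siCTRL replicate 2 and siIRF4 replicate 2, the libraries farthest from the MCM4 median, r was -0.392. With the other helicase transcripts E2F1 had a positive r: 0.435 with MCM2, 0.579 with MCM5, 0.484 with MCM6 and 0.146 with MCM7. For MCM7 with E2F1, rho was -0.257. The libraries lie in separate sets of 3 on this axis, so no correlation with it was computed, and what sets the axis was not tested. Mean fragment lengths in the same order were 272.5, 297.3, 271.5, 262.7, 294.5 and 285.1 bases.

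**Figure D4:**
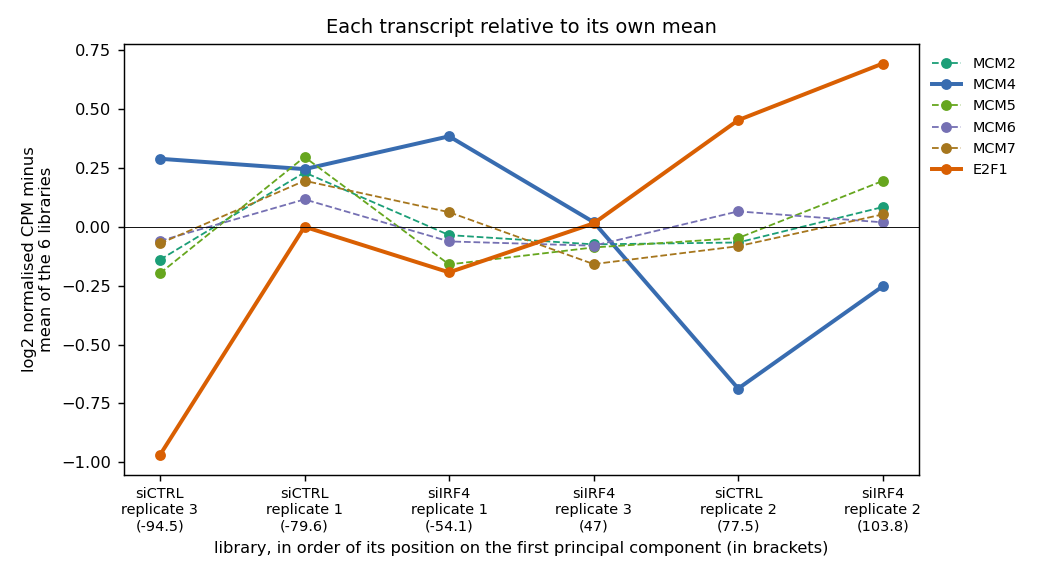
Log2 normalised CPM of each transcript minus its own mean over the 6 libraries (vertical axis), with the libraries in order of their position on the first principal component (in brackets). E2F1 (orange) is lowest in siCTRL replicate 3 and highest in siIRF4 replicate 2, and MCM4 (blue) is lowest in siCTRL replicate 2. MCM2, MCM5, MCM6 and MCM7 (dashed) vary less. Their SD over the 6 libraries runs from 0.0803 (MCM6) to 0.2 (MCM5), against 0.407 for MCM4 and 0.577 for E2F1.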

How the data were processed

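The sources used here were 6 transcript tables, 1 per RNA-seq library of polyadenylated RNA. Per the file headers, each row of a deposited table gives a target's length, effective length, estimated count and TPM. The submitters' processing notes name kallisto, sleuth, Bowtie2, GRCh38 and hg19, without versions or roles; the annotation release is not given in the sources used here. TPM, as deposited by the authors, sums to 1000000 in each library.

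No table at hand pairs Ensembl transcripts with genes. The listed genes were therefore followed through the main transcript that the list itself names, for 6 of 43 genes; the estimated count was not summed over the other transcripts of a gene. The remaining 37 genes, IRF4 itself, the planned lists of other replication, G1/S and mitotic genes, and the cell type markers were not analysed here. The eGFP-IRF4 ChIP-seq peak lists, whose contig names are those of hg19, were not used here, since no annotation of that build was at hand. The members and lists were chosen with earlier results of these data known.

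Estimated counts were rounded and tested per transcript with edgeR 4.0.16 in R 4.3.3 (quasi-likelihood test, TMM, filterByExpr, two-sided), on 3 siIRF4 and 3 siCTRL libraries without a block. p-values were adjusted by Benjamini-Hochberg over 83831 transcripts, with a threshold of 0.05. The method was run on simulated counts with the same dispersion for all transcripts. That dispersion was set below the common value fitted here, a coefficient of variation of 54.4%. The run therefore does not measure the power of the test in these data. Standard errors are the absolute log2 fold change over the square root of F, and 95% intervals use the t distribution. Normalised CPM is the count divided by the TMM-adjusted library total, times 1000000. The rule for printing values per library named MCM2 to MCM7, E2F1, PCNA, IRF4, members whose groups did not overlap and the extremes of each role group; 6 of these could be followed. For principal components, 35947 transcripts averaging 1 CPM or more were taken, on a log2 scale after adding 2 counts. No pair of libraries was a repeat deposit: the chi-square statistic per degree of freedom was at least 38.8. Alternatives were DESeq2 1.42.0, limma 3.58.1 (voom, and log2(TPM + 1) or log2(TPM + 0.1)), other normalizations and filters, an effective-length offset, the replicate block and leaving out libraries. Promoter windows come from RefSeq (GRCh38.p14), matched by symbol.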

Additional observations from a re-analysis of the deposited data

How the results depend on the processing

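Of the 6 transcripts, 0 passed an adjusted p of 0.05 in any of the 18 alternatives, and 0 reached an unadjusted p under 0.05. Over all transcripts 0 were called except with DESeq2 (192) and limma on log2(TPM + 0.1) (8); the cause was not tested. Each fit without 1 library gave 0 calls. The median log2 fold change of the 6, -0.028, ranged from -0.080 to 0.102 with 1 library left out. With the replicate block it was -0.023, there were 0 calls, and 2746 transcripts against 1791 reached an unadjusted p under 0.05. E2F1 with the block had a log2 fold change of 0.342 (edgeR unadjusted p = 0.235, adjusted p = 0.997). Deviations of same-numbered libraries correlated at 0.196, 0.238 and 0.0381. Without a value to compare them with, these do not settle whether same-numbered libraries are paired. The main fit had no block.

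Signs turned only when libraries were left out. With 1 library left out, the log2 fold change ran from -0.091 to 0.094 for MCM2, from -0.191 to 0.228 for MCM4, from -0.149 to 0.110 for MCM5, from -0.078 to 0.065 for MCM7 and from -0.019 to 0.631 for E2F1. Without siIRF4 replicate 1, MCM4 was -0.123 and MCM5 0.027. Without siIRF4 replicate 2, E2F1 was -0.019. Without siIRF4 replicate 3, MCM2 was 0.0094 and MCM7 0.039. Without siCTRL replicate 1, MCM2 was 0.094, MCM5 0.110 and MCM7 0.065. Without siCTRL replicate 2, MCM4 was -0.191. Without siCTRL replicate 3, E2F1 was -0.016. With both siIRF4 replicate 1 and siCTRL replicate 2 left out, MCM4 was -0.375 and 10810 transcripts reached an unadjusted p under 0.05. That pair was picked by its place on the first principal component, so the groups left part along it. MCM6 lay below 0 in all 18.

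Not run were counts summed per gene, the alternative that takes 1 transcript per gene, and those for peaks near start sites. With 3 libraries a group, the interval of E2F1 allowed folds from 0.634 to 2.33. The floor of 10 CPM and the fit without 2 libraries were chosen after the data were seen.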
